A study of Mus musculus with 4 samples.

Results

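Natural killer (NK) cell and cytotoxic granule genes were followed in the lungs of control mice, comparing Normoxic with Sugen-Hypoxic animals. The set holds 10 of the 47729 genes counted, listed by symbol with earlier results of these data known: Gzma, Gzmb, Prf1 and Nkg7 of the cytotoxic granule, the surface receptor genes Ncr1, Klrb1c, Klrk1 and Klrc1, and the transcription factor genes Eomes and Tbx21. All 10 were found and all 10 passed the filter on low counts, with 20 to 1400 reads per gene and library. The RNA was polyA RNA sequenced from mice of strain BL/6 whose genotype is labelled Control (Rosa) in both groups. Normoxic replicate 1 lists 3 females, Normoxic replicate 2 lists 1 female and 2 males, and each of the 2 Sugen-Hypoxic replicates lists 2 males, so a library was read as a pool of that many animals, 6 normoxic and 4 treated in all. Sugen, an inhibitor of VEGF receptors, was not given without hypoxia, so the effects of the 2 cannot be told apart, and neither can those of treatment and sex. The arm with KCNK3 mutations that the series names was not analysed here.

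NK cells are innate lymphocytes that kill stressed, infected or transformed cells without prior priming, and the lung holds a large resident and circulating pool of them. On contact with a target they release granules in which perforin opens the way and granzymes, a family of serine proteases, enter and start cell death. Activating receptors such as NKp46 and NKG2D and inhibitory ones such as NKG2A set the threshold for release, and the T-box factors T-bet and Eomes drive maturation and the granule programme. Cytotoxic CD8 T cells and some NKT cells use the same granule genes and some of the same receptors, so that in whole lung only Ncr1 and Klrb1c come close to marking NK cells.

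Libraries held 57.3 to 67.1 M reads counted in genes (M, 1e6). Levels are given as CPM, gene counts per 1e6 counted reads. The lung surfactant gene Sftpc was at 11239 to 12003 CPM, while Umod, the main urinary protein of the kidney, had 0 CPM in 3 libraries and 0.122 CPM in the fourth. The extraction protocol in the labels speaks of kidneys, whereas the source entry and these 2 genes are those of lung. Xist, expressed from the inactive X of females, was at 503 and 153 CPM in the normoxic and at 0.488 and 0.505 CPM in the Sugen-Hypoxic pools, which follows the listed sexes.

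All 10 genes fell with Sugen-Hypoxic treatment, by 2.59-fold for Nkg7 to 5.09-fold for Gzma, and the receptors, the granule proteins and the transcription factors fell together. In edgeR's quasi-likelihood test, adjusted over 18783 genes, 10 of the 10 were lower, against 6.01% of all genes tested. None was higher: 0 in edgeR, against 5.51% of all genes, 0 in DESeq2 (8.79%) and 0 in limma-voom (5.32%). At an unadjusted p under 0.05 in edgeR the count was also 0, with no background beside it. The median log2 fold change of the 10 was -1.92, beside -0.004 for all genes tested. All 10 were at least 2-fold lower, against 5.47% of all genes, and a negative log2 fold change by itself was found for 50.5%. Both treated pools lay below both normoxic pools for 10 of 10 genes, an order that 40% of all genes show. In whole lung, fewer cells of a type and less RNA per cell cannot be told apart, so these are levels of the tissue.

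Summed over the 10 genes, the pools of each group were closer to each other than to the other group. Together they made up 72.2 and 56.1 CPM in Normoxic replicates 1 and 2 and 15.0 and 17.2 CPM in Sugen-Hypoxic replicates 1 and 2. Normoxic replicate 2, the pool with 2 males, lay below Normoxic replicate 1 and above both treated pools for 9 of 10 genes, against 18.4% of all genes tested. The exception was Tbx21. Normoxic replicate 1 was the higher of the 2 normoxic pools for the same 9 genes, against 44.9% of all genes. With the male fraction of each pool as a covariate (1 residual degree of freedom), the 10 log2 fold changes ran from -1.90 to -1.19 and all remained negative. In that fit 0 of 10 passed edgeR's test (adjusted p 0.26 to 0.569, 8 of 10 at an unadjusted p under 0.05), where 0.0373% of all genes were called lower. That share is at an adjusted p under 0.05, so the count of 8 has no background beside it.

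The calls rested on both normoxic pools. Without Normoxic replicate 1, 0 of 10 genes passed edgeR's test (adjusted p 0.0614 to 0.197, 10 of 10 at an unadjusted p under 0.05, median log2 fold change -1.74), and 0.041% of all genes were called lower. Without Normoxic replicate 2, Gzma (adjusted p = 0.0269) and Prf1 (adjusted p = 0.0482) passed, the other 8 did not, the median was -2.08, and 0.296% of all genes were called lower. Shares of all genes are at an adjusted p under 0.05, so a count at an unadjusted p has no background beside it. In both fits only the treated pair is left to show the spread within a group. That pair differed from each other more than the normoxic pair did, with a chi-square per degree of freedom of 68.4 over 16311 genes against 14.2 over 16678. Without Sugen-Hypoxic replicate 1 or 2, all 10 genes passed, where 12.3% and 12.5% of all genes were called lower. For 1 gene taken alone, an exact permutation test of 2 pools against 2 cannot give a two-sided p under 0.333.

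**Figure D1:**
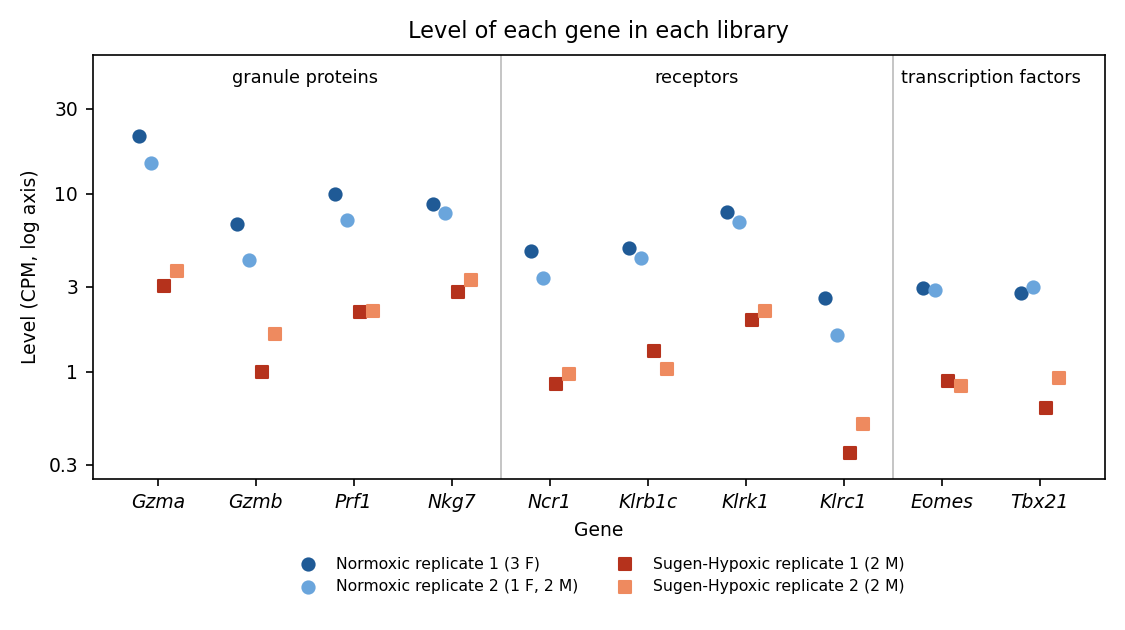
Level of each of the 10 genes in each library, in CPM on a log axis, with normoxic pools as circles and Sugen-Hypoxic pools as squares. Both squares lie below both circles for every gene, and Normoxic replicate 1 lies above Normoxic replicate 2 for 9 of the 10, Tbx21 being the exception.

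Of the granule proteins, Gzma, the tryptase-type granzyme A, was the most abundant and fell the most. It was at 20.9 and 14.9 CPM in the normoxic and 3.04 and 3.66 CPM in the Sugen-Hypoxic pools, from 1400, 867, 174 and 239 reads. The groups did not overlap, and 18.7% of the normoxic mean was left: 17.9 ± 4.22 against 3.35 ± 0.44 CPM (SD, n = 2 pools each). The log2 fold change was -2.35 ± 0.20 (SE), a 5.09-fold fall (edgeR adjusted p = 0.00559). Gzma (ENSMUSG00000023132) lies on the minus strand of chr13:113093825-113100981 in GRCm38. The 250 bases before its start in RefSeq (GRCm38.p6, chr13:113100982-113101231) hold the letters of the RUNX motif, TGTGGT or ACCACA on the other strand, with the first base 50 bases before the start. They are shown because RUNX letters stood before 8 of the 10 genes, and the capitals mark them:

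Gzma: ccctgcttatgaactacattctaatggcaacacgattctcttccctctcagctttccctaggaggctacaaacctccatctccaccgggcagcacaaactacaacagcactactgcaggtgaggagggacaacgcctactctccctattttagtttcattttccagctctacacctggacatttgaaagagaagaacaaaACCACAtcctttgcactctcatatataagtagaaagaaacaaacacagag

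Gzmb, the aspartate-specific granzyme B that cleaves caspase substrates, was at 6.76 and 4.26 CPM in the normoxic and 0.994 and 1.62 CPM in the treated pools. The pools of each group stood further apart than for Gzma, but the groups did not overlap. The mean went from 5.51 ± 1.77 to 1.31 ± 0.444 CPM, and the log2 fold change of -2.01 ± 0.34 is a 4.02-fold fall (edgeR adjusted p = 0.0237). Gzmb (ENSMUSG00000015437) lies on chr14:56258838-56262260, minus strand. Within each library Gzma gave 3.08 and 3.5 reads for each Gzmb read in normoxia and 3.05 and 2.25 in treated pools. Sugen-Hypoxic replicate 1 thus lay just below the lower normoxic ratio, and replicate 2 lay further below. This difference was not tested.

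Prf1 encodes perforin, the pore-forming protein without which granzymes do not enter the target's cytosol. It was at 9.96 and 7.08 CPM in normoxic and at 2.15 and 2.19 CPM in treated pools. The treated pools were nearly equal, and the means, 8.52 ± 2.04 and 2.17 ± 0.0301 CPM, gave a log2 fold change of -1.91 ± 0.22, a 3.75-fold fall (edgeR adjusted p = 0.00931). Nkg7, a granule membrane protein that takes part in granule release, fell the least of the 10. It was at 8.71 and 7.78 CPM in normoxic and at 2.81 and 3.28 CPM in treated pools. With 36.9% of its mean left (8.25 ± 0.66 against 3.04 ± 0.33 CPM), its log2 fold change was -1.37 ± 0.16, a 2.59-fold fall (edgeR adjusted p = 0.00985). Prf1 (ENSMUSG00000037202) lies on chr10:61297833-61304680 and Nkg7 (ENSMUSG00000004612) on chr7:43437073-43438249, both on the plus strand. The median log2 fold change of the 4 granule genes was -1.96, and their summed level went from 46.3 and 34 CPM to 8.98 and 10.7 CPM.

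Prf1 and Nkg7 carry the RUNX letters once and Gzmb carries them at 2 places in the 250 bases before the RefSeq start. Each is printed 5′ to 3′ on the gene's strand with 12 bases on either side and the motif in capitals:
Gzmb, chr14:56262410-56262439, strand minus: accctatgccctTGTGGTcttgccctgggc
Gzmb, chr14:56262351-56262380, strand minus: tgtgggttctgcTGTGGTtacttcatgatt
Prf1, chr10:61297694-61297723, strand plus: tgggaacctgtgACCACActctgggggcag
Nkg7, chr7:43437043-43437072, strand plus: gggcccacccctACCACAtaggaggagagg

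Among the receptors, Ncr1 encodes NKp46, an activating receptor that in mice marks NK cells and some other innate lymphoid cells. It was at 4.77 and 3.37 CPM in the normoxic and 0.855 and 0.964 CPM in the Sugen-Hypoxic pools. The treated pools lay close together and far below the normoxic ones, with 49 and 63 reads against 320 and 196. The means were 4.07 ± 0.99 and 0.909 ± 0.0773 CPM, the log2 fold change was -2.09 ± 0.27, and the fall was 4.26-fold (edgeR adjusted p = 0.0122). Ncr1 (ENSMUSG00000062524) lies on chr7:4337724-4345164, plus strand. The 250 bases before its RefSeq start (chr7:4337465-4337714) hold the RUNX letters at 2 places, 176 and 41 bases before the start, once on each strand:

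Ncr1: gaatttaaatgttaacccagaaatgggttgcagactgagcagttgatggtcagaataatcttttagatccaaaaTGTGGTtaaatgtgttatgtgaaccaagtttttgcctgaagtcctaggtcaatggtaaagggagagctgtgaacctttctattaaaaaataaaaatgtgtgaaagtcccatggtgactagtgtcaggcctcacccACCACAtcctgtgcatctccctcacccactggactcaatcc

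Klrb1c encodes NK1.1, the surface antigen by which NK cells of BL/6 mice are usually stained. Its level was 4.96 and 4.33 CPM in normoxic and 1.31 and 1.03 CPM in treated pools. The means of 4.64 ± 0.447 and 1.17 ± 0.2 CPM gave a log2 fold change of -1.92 ± 0.23, a 3.8-fold fall (edgeR adjusted p = 0.0106). Klrb1c (ENSMUSG00000030325, chr6:128778485-128789215, minus strand) overlaps the span of the gene model Gm44511 on the same strand. Whether exons are shared, and whether reads were left out for that reason, was not checked. Klrk1 encodes NKG2D, the activating receptor for stress-induced ligands, which CD8 T cells can carry too. It was at 7.86 and 6.96 CPM in normoxic and at 1.94 and 2.19 CPM in treated pools, without overlap. Its log2 fold change was -1.78 ± 0.17, a 3.43-fold fall from 7.41 ± 0.643 to 2.06 ± 0.178 CPM (edgeR adjusted p = 0.00675).

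Klrc1 encodes NKG2A, an inhibitory receptor that pairs with CD94 and reads the class I molecule Qa-1. It had the fewest reads of the 10, 174 and 94 in normoxic and 20 and 33 in treated pools, or 2.59 and 1.61 against 0.349 and 0.505 CPM. It also had the largest error, with a log2 fold change of -2.23 ± 0.38 and a 4.68-fold fall from 2.1 ± 0.691 to 0.427 ± 0.11 CPM (edgeR adjusted p = 0.0237). Klrk1 (ENSMUSG00000030149, chr6:129610323-129623864) and Klrc1 (ENSMUSG00000030167, chr6:129666015-129678973) lie close together on the minus strand. The activating and the inhibitory receptor gene both fell, and Klrc1 gave 0.33 and 0.232 reads for each Klrk1 read in normoxic and 0.18 and 0.231 in treated pools. The median of the 4 receptor genes was -2.01, with summed levels of 20.2 and 16.3 against 4.45 and 4.68 CPM. Klrc1 is one of several near-identical neighbours, and reads that fit more than 1 of them were not counted, so its level is uncertain. The 3 receptor genes of chromosome 6 carry the RUNX letters once each, shown in the same way:
Klrb1c, chr6:128788713-128788742, strand minus: aggaaggaaagcTGTGGTcatggtgttttg
Klrk1, chr6:129623976-129624005, strand minus: tgatagctgtgcTGTGGTtgtgtgggggtt
Klrc1, chr6:129679043-129679072, strand minus: gttgttgttgttACCACAgcactcgtattc

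The 2 transcription factor genes had the normoxic pools that were most alike among the 10. Eomes, which marks conventional NK cells and some memory CD8 T cells, was at 2.96 and 2.87 CPM in normoxic and at 0.89 and 0.826 CPM in treated pools. Its log2 fold change was -1.69 ± 0.23, a 3.24-fold fall from 2.92 ± 0.0678 to 0.858 ± 0.0448 CPM (edgeR adjusted p = 0.0145). Tbx21, which encodes T-bet and is shared with type 1 helper and CD8 T cells, was at 2.77 and 2.97 CPM in normoxic and at 0.628 and 0.918 CPM in treated pools. It was the 1 gene for which Normoxic replicate 2 was the higher pool. Its log2 fold change was -1.82 ± 0.28, a 3.53-fold fall from 2.87 ± 0.142 to 0.773 ± 0.205 CPM (edgeR adjusted p = 0.0185). Eomes (ENSMUSG00000032446) lies on chr9:118478212-118486132, plus strand, and Tbx21 (ENSMUSG00000001444) on chr11:97098071-97115331, minus strand. Neither carries the RUNX letters in the 250 bases before its RefSeq start, and these 2 stretches hold more CpG than the other 8, with 8 in Eomes and 16 in Tbx21 against 0 to 4.

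Levels of different genes were compared as mean CPM per kb of exon. In normoxia Gzma led at 17.8, followed by Nkg7 at 9.02, Gzmb at 3.84, Prf1 at 3.3 and Ncr1 at 2.64. The remaining genes ran from 1.57 for Klrb1c through 1.15 for Tbx21, 1.06 for Klrc1 and 1.03 for Klrk1 down to 0.702 for Eomes. In treated pools Gzma and Nkg7 were level at 3.33 CPM per kb each. In the mean, Gzmb (0.911), Prf1 (0.839) and Ncr1 (0.591) kept their order behind them. In Sugen-Hypoxic replicate 1 alone, Prf1 (0.83) stood above Gzmb (0.692). Ratios of reads within a library were read for some pairs of the 10 genes, with no background share for pairs that do not overlap. Nkg7 gave 1.83 and 2.31 reads for each Ncr1 read in normoxic and 3.29 and 3.4 in treated pools, without overlap. Prf1 gave 2.09 and 2.1 against 2.51 and 2.27, also without overlap but by less. Gzma went the other way, with 4.38 and 4.42 reads for each Ncr1 read in normoxic and 3.55 and 3.79 in treated pools. For each Eomes read it gave 7.04 and 5.19 against 3.41 and 4.43, both without overlap. The ratio of Gzmb to Ncr1 overlapped between groups, at 1.42 and 1.27 against 1.16 and 1.68. That of Eomes to Tbx21 overlapped too, at 1.07 and 0.965 in normoxic against 1.42 and 0.9 in treated pools. Differences between members in the size of their fall were not tested.

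RUNX letters stood before 8 of the 10 genes, all 4 granule and all 4 receptor genes, against 14.2% of the 27025 genes with a sequence in the table and 11.2% of the 12800 of these that were tested. The search took either strand of the 250 bases, and the motifs were chosen with these sequences in view, so the shares describe and test nothing. The first listed RefSeq start of each gene was used, and for Klrb1c these bases lie inside its annotated span. Those of Nkg7 and Prf1 run into theirs, ending at chr7:43437137 and chr10:61297835. The annotated starts are 43437073 and 61297833, so the T-box letters of Nkg7 given below lie inside its span. Other granzyme genes held the letters in 6 of 8 cases, mast cell and basophil markers in 4 of 6, other Klr genes in 5 of 20 and T cell markers in 0 of 11. The letters GTGTGA or TCACAC of T-box factors stood before 3 of 10 members (Gzmb, Nkg7 and Ncr1) against 12.2% of all genes. The letters GGAAGT or ACTTCC of ETS factors stood before 3 of 10 (Prf1, Klrb1c and Tbx21) against 20%.

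**Figure D2:**
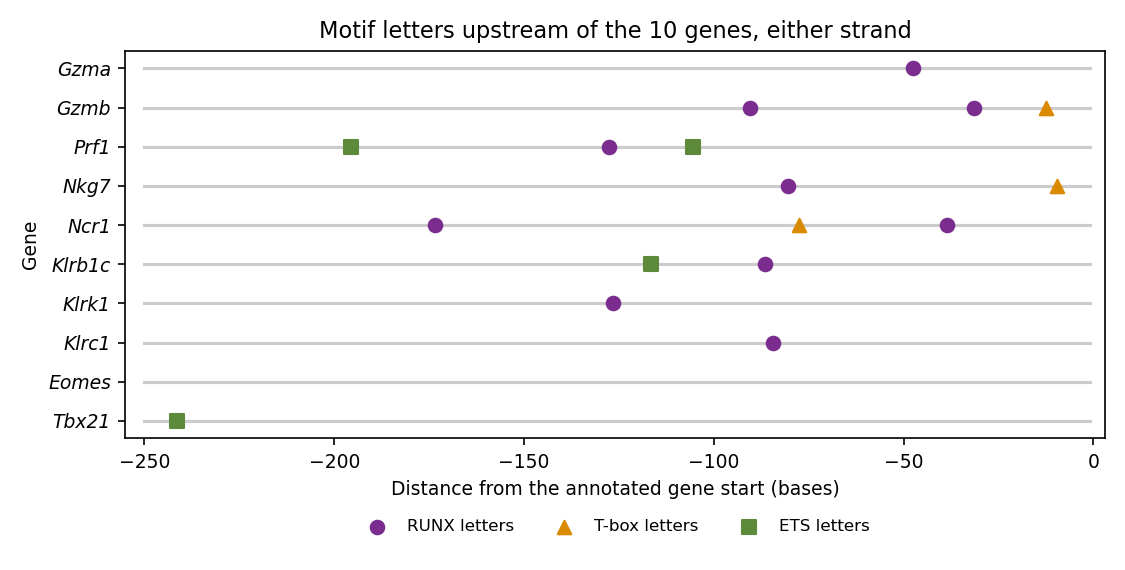
Places of the RUNX, T-box and ETS letters, on either strand, in the 250 bases before the RefSeq start of each of the 10 genes, as distance from the start in bases. RUNX letters lie before 8 genes, the farthest starting 176 bases before the gene start, and before neither Eomes nor Tbx21.

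Other genes of the NK pathway were read from lists by role. Of the 8 other granzymes, 5 (Gzmd, Gzme, Gzmf, Gzmg and Gzmn) had 0 reads in all libraries and Gzmc had 2 to 8. The 2 that could be tested did not pass: Gzmm had a log2 fold change of -0.68 (edgeR adjusted p = 0.19) and Gzmk, typical of memory T cells, one of -1.33 (adjusted p = 0.0896). Of 16 genes of granule matrix, loading and release, 3 were lower and 1 was higher, with a median of 0.07. Ctsw, a cathepsin of cytotoxic lymphocytes, fell 2.02-fold. Lyst (log2 fold change -0.43) and Unc13d (-0.32), which act in lysosome sorting and granule priming in many cells, fell less. Srgn, the proteoglycan core of granules in many blood cells, rose with a log2 fold change of 0.48.

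Of 12 death ligands, effector cytokines and granzyme inhibitors, 1 was lower, with a median of -0.47. The 1 was Ccl5, the chemokine stored by cytotoxic lymphocytes, at 25.1 and 20 CPM in normoxic and 5.6 and 7.41 CPM in treated pools (log2 fold change -1.73, edgeR adjusted p = 0.00748). Of 14 cytokines and cytokine receptors of NK cells, 2 were lower and 1 higher, with a median of -0.17. Il2rb, the chain that NK cells use for IL-15 and IL-2, fell 2.56-fold, and Il18rap, a chain of the IL-18 receptor, fell 2.04-fold. Tgfbr2, widely expressed in lung, rose with a log2 fold change of 0.37. Il15 itself, named after its values were seen, was at 5.56 and 5.03 against 5.37 and 4.51 CPM (log2 fold change -0.03, edgeR adjusted p = 0.927).

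Some, not most, of the other Klr genes passed the test. Of 19 other Klr genes tested, 19 had a negative log2 fold change, from -2.54 to -0.11 with a median of -1.47, and 7 were lower while 12 did not pass. The genes with the largest change among those 7 were Klrb1f (-1.99), Klra4 (-1.97), Klri2 (-1.92) and Klre1 (-1.81). Klrd1, which encodes CD94, the partner of NKG2A, and is named for that reason, was at 6.17 and 5.55 CPM in normoxic and at 2.53 and 1.53 CPM in treated pools (log2 fold change -1.46, edgeR adjusted p = 0.0318). Klr genes other than Klrg lie together on chr6:128609227-131247362, over 2.64 Mb. Of the 28 annotated there, Klrb1c, Klrk1 and Klrc1 included, 23 were tested, 23 had a negative log2 fold change and 11 were lower. Many Klra and Klrc genes are near-identical copies, so counts of single genes among them are uncertain. Of the other Klr genes, edgeR called 0 lower without Normoxic replicate 1 and 0 without Normoxic replicate 2, with 8 and 11 at an unadjusted p under 0.05.

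Of 20 other receptors and adaptors, 3 were lower, with a median of -0.72. S1pr5, the sphingosine phosphate receptor by which mature NK cells leave tissue, fell 4.88-fold, from 4.59 and 3.74 to 0.628 and 0.995 CPM (log2 fold change -2.29, edgeR adjusted p = 0.0123). Cd247, the zeta signalling chain of NK receptors and the T cell receptor, fell 2.26-fold, and Cd226, an activating receptor, fell 2.08-fold. Of 15 other transcription factors of NK cells, 6 were lower, with a median of -0.35. The largest were Stat4 (-1.16), which acts after IL-12, Bcl11b (-0.98), a factor of T cells, Ikzf3 (-0.91), expressed in B cells too, and Prdm1 (-0.48). Of 8 ligands of the receptors above, Pvr was higher (0.41) and Clec2d, the ligand of some Klrb1 receptors, lower (-0.25).

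Markers of other blood cells moved as well, and their part in the result was not tested beyond the scalings that follow. T cell markers were lower in 14 of 19 genes, with a median of -0.96 and summed levels of 215 and 207 CPM against 118 and 123 CPM. Trbc1 (-1.41), Cd8a (-1.38), Cd8b1 (-1.31) and Ccr7 (-1.19) changed the most, and 17 of the 19 changed by less than every one of the 10 NK cell and granule genes did. B cell markers were lower in 9 of 11 genes, with a median of -1.32, led by Pax5 (-1.59), Ighd (-1.57), Cr2 (-1.47) and Cd79a (-1.43). Neutrophil markers were lower in 7 of 9 (median -1.23), led by Ngp (-1.84) and Retnlg (-1.41). Monocyte markers were lower in 3 of 9 (median -0.48), namely Cd300e (-1.71), Treml4 (-1.68) and Ccr2 (-1.17). Dendritic cell markers were lower in 2 of 8 (median -0.98), Siglech (-2.03) and Itgae (-0.71), and mast cell and basophil markers in 2 of 7 (median -1.33), Fcer1a (-2.24) and Mcpt8 (-2.21).

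Not every list moved that way. Alveolar macrophage markers had a median of 0.05, with Chil3 higher (2.26) and Car4 lower (-0.87). Red cell genes had positive log2 fold changes from 0.23 to 0.82 that did not pass edgeR's test, and markers of type 2 innate lymphoid cells had 2 of 6 higher, Arg1 (5.44) and Areg (1.29), both of which other cells express too. Of 7 markers of gamma-delta T and NKT cells 1 was lower. Genes of all leukocytes were lower in 5 of 10, with a median of -0.38, and Ptprc, which encodes CD45, was at 244 and 243 CPM in normoxic and at 120 and 155 CPM in treated pools (log2 fold change -0.76). These counts also rested on the normoxic pools. Without Normoxic replicate 1, edgeR called 0 T cell, 1 B cell and 0 neutrophil markers lower, with 15, 9 and 8 at an unadjusted p under 0.05. Without Normoxic replicate 2 it called 0, 5 and 2, with 18, 9 and 7 at an unadjusted p under 0.05.

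**Figure D3:**
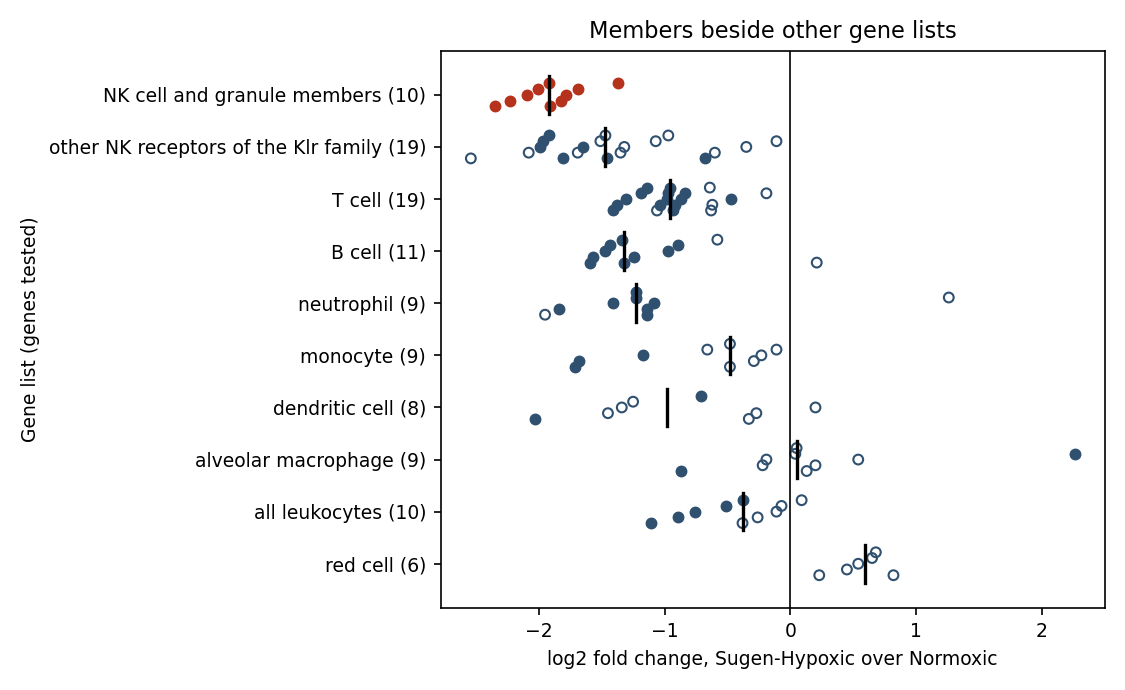
Log2 fold change (Sugen-Hypoxic over Normoxic) of each gene of the 10 and of other lists, with filled points past edgeR's test, open points not, and a bar at each median. The 10 genes run from -2.35 to -1.37 around a median of -1.92, beside medians of -0.96 for T cell, -1.32 for B cell and -1.23 for neutrophil markers.

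The 10 genes were then set against T cell marker RNA of the same lungs, by scaling each library to its summed reads of the 19 T cell markers. How much of these reads comes from other cells of the lung was not tested. For every 1000 reads of T cell markers, Gzma gave 96.9 and 71.9 reads in the normoxic and 25.8 and 29.8 in the Sugen-Hypoxic pools. Ncr1 gave 22.2 and 16.3 against 7.26 and 7.85, and Prf1 46.3 and 34.2 against 18.2 and 17.8. Nkg7 gave 40.5 and 37.6 against 23.9 and 26.7, the narrowest gap of these 4. On this scale all 10 genes still fell, with log2 fold changes from -1.60 ± 0.18 for Gzma (3.04-fold, edgeR adjusted p = 0.000262) to -0.63 ± 0.17 for Nkg7 (1.54-fold, adjusted p = 0.0144). The calls were 10 of 10, against 1.14% of all genes called lower on this scale and 67.2% called higher. The scaling takes the summed reads as known without error. Of the 19 T cell markers themselves 4 were lower on it, Trbc1 (-0.67), Cd8a (-0.63), Cd8b1 (-0.57) and Ccr7 (-0.45). Cd8a thus stood level with Nkg7. The 2 higher were Tcf7 (0.28) and Il7r (0.55), which weigh much in the sum. They gave 3048 and 1905 of its 14446 reads in Normoxic replicate 1. In Sugen-Hypoxic replicate 1 they gave 1830 and 1072 of 6750.

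The count of calls on the T cell scale depended on the normoxic pools and on the reference. It was 5 of 10 without Normoxic replicate 1 (against 0.559% of all genes) and 7 of 10 without Normoxic replicate 2 (0.546%). Without Sugen-Hypoxic replicate 1 or 2 it was 10 of 10 (1.66% and 2.54%). With the mean log2 level of the list in place of its sum the count was 9 of 10 (0.767%). With the 6 genes of the T cell receptor complex it was 9 of 10 (0.65%). Nkg7 was the exception in both, at edgeR adjusted p = 0.0534 and 0.0898. The median log2 fold change of the 10 was -1.17 with the sum, -0.99 with the mean log2 level and -0.92 with the receptor complex. Set against 10 of the 11 B cell markers, with Ighm left out because plasma cells express it too, all 10 log2 fold changes were still negative. Of them 5 passed, where 0.351% of all genes were called lower and 83.3% higher. These were Gzma (-1.05), Klrc1 (-0.94), Ncr1 (-0.79), Gzmb (-0.72) and Prf1 (-0.60), while Nkg7 was at -0.07, Eomes at -0.39, Klrk1 at -0.48, Tbx21 at -0.54 and Klrb1c at -0.61. Ighm had 45401 and 21162 reads in the normoxic and 9334 and 64999 in the Sugen-Hypoxic pools, more than the other 10 B cell markers together in Normoxic replicate 1 and both treated pools. With Ighm in the reference, 0 of 10 genes passed edgeR's test (adjusted p = 0.861 for each, 0 at an unadjusted p under 0.05, median log2 fold change -1.13), where 0% of all genes were called lower. The T cell receptor and B cell references were chosen after the data were seen.

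Set against the 10 genes of all leukocytes, the log2 fold changes ran from -2.02 for Gzma to -1.03 for Nkg7. All 10 were called lower on that scale, against 2.07% of all genes, and 1 of 10 without Normoxic replicate 1 (0.164%). In the leukocyte and B cell fits edgeR gave all genes 1 common spread, so an error in the scaling shared by all genes is not seen, the calls may be too many, and the p-values of the calls are not given. Reads of Ncr1, taken as an example, for each read of single reference genes show the same order with no scaling. For Cd3e of the T cell receptor they were 0.557 and 0.449 in normoxic and 0.206 and 0.219 in treated pools. For Cd79a of B cells they were 0.0799 and 0.062 against 0.0478 and 0.0432. That order does not hold for every member. Nkg7 had 585 and 453 reads in normoxic and 161 and 214 in treated pools. Cd79a had 4004 and 3162 against 1025 and 1460, so Nkg7 did not fall relative to it. The remaining members are not given in this way.

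**Figure D4:**
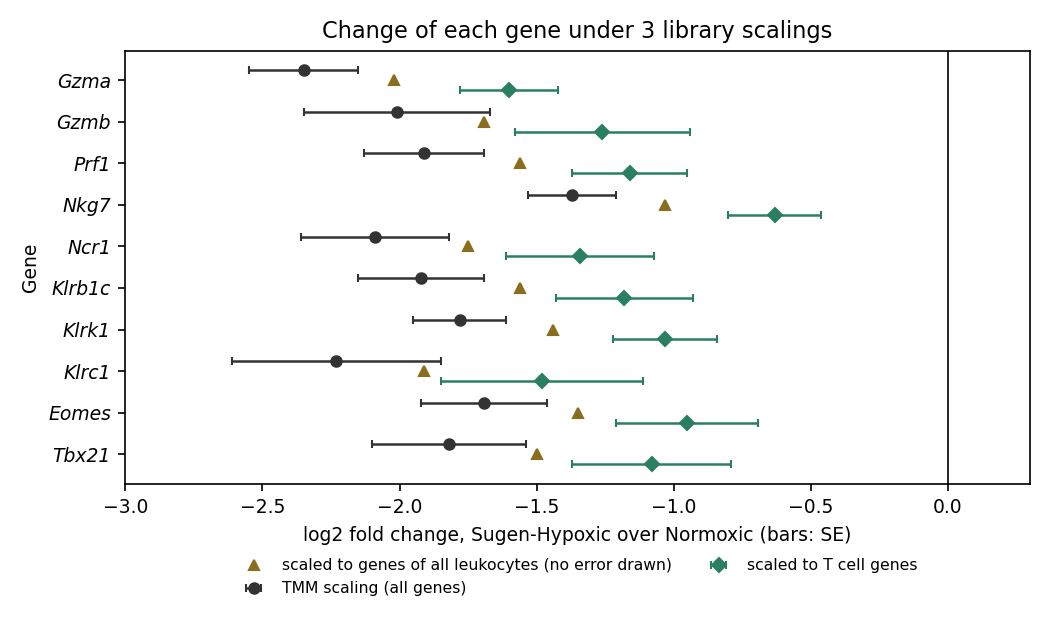
Log2 fold change of each of the 10 genes with libraries scaled by TMM over all genes, to T cell markers, or to genes of all leukocytes, with bars showing the SE for the first and second. Values move towards 0 from TMM to the leukocyte and the T cell scale, from -2.35 through -2.02 to -1.60 for Gzma, and none reaches 0.

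Settings of the count analysis did not change the calls. All 10 genes were lower with RLE factors (5.84% of all genes lower), upper-quartile factors (7.58%), library size alone (8.43%), no filter (6.91%), a filter on mean CPM (8.09%), unstranded counts (5.86%), DESeq2 (8.53%) and limma-voom (6.15%).

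The search took the 14897 tested genes that averaged at least 1 CPM and had reads in all 4 libraries. Of these, 8 others came closest to the median profile of the 10, by the root mean square difference in centred log2 CPM over the 4 libraries. They were Adgre4 (0.0652), Rprml (0.0989), Prom2 (0.101), Gm14207 (0.101), Osbp2 (0.111), Ccl5 (0.123), Treml4 (0.127) and Gm8369 (0.133). The 10 genes themselves, from which that profile was taken, lay at 0.0794 for Prf1 to 0.281 for Nkg7. Adgre4, an adhesion receptor of myeloid cells, was at 17.7 and 14.2 CPM in normoxic and at 3.87 and 4.74 CPM in treated pools. With 4 libraries such likeness describes these pools alone.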

How the data were processed

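Lung polyA RNA of 2 Normoxic and 2 Sugen-Hypoxic pools was analysed from raw read counts per gene, which the authors deposited as 1 file per library. The submitters' processing notes name the aligner STAR 2.5.1b, the build GRCm38.p4 and HTSeq. Whether the kit kept strand, and which annotation was used, is not given in the sources used here. Antisense counts were 20.9 to 24.9 times sense counts and were used, with unstranded counts as an alternative. Reads unmapped (6.45 to 7.55%), multimapping (4.5 to 4.54%), without a feature (7.73 to 9.98%) or ambiguous (1.1 to 1.13%) stayed out of library sizes. Of the 47729 identifiers, 47310 matched GENCODE mouse release 21, the source of symbols and coordinates, and 67 symbols had more than 1 identifier.

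Genes kept by filterByExpr (18783) were scaled by TMM and compared by edgeR's quasi-likelihood test (version 4.0.16 under R 4.3.3), two-sided, with the 2 groups of 4 libraries as the model, with Benjamini-Hochberg adjustment at 0.05. Log2 fold changes are Sugen-Hypoxic over Normoxic, and SEs were derived from the F statistic. Shares of all genes called lower or higher are at an adjusted p under 0.05. None is given at an unadjusted p, so counts at an unadjusted p, in the other gene lists too, have no background. CPM in the text is not TMM-scaled and is given as mean ± SD over 2 pools. For relative levels, effective library sizes were set to the summed counts of 19 T cell markers or 10 leukocyte genes and the same test was run. DESeq2 1.42.0 and limma-voom (limma 3.58.1) were alternatives. Tests measure the spread between pools, which the labels do not tie to separate cohorts. Counting also limits the members in treated pools, where they had 20 to 239 reads.

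The members and gene lists were chosen with earlier results of these data known. From each list up to 4 genes past the test with the largest absolute change are named, and others only where a statement turns on them or where that is said. Promoters are the 250 bases before the first listed RefSeq start of a gene (GRCm38.p6), and all 10 members matched by symbol.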

Additional observations from a re-analysis of the deposited data

How the results depend on the processing

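All 130 log2 fold changes of the 10 genes under the alternatives were negative, 102 kept their call and 28 lost it, each of the latter under the fits without a normoxic pool or with the male fraction. Leaving out 1 library at a time gave 0 to 10 members lower, and 0 with the male fraction as a covariate. The number of all genes past edgeR's test was 2163, and it ran from 25 to 5101 when 1 library was left out. It was 3657 with no filter, 3254 with DESeq2 and 11 with the male fraction as a covariate. Upper-quartile factors called 1424 genes lower and 799 higher and library size alone 1584 and 765, against 1128 and 1035 with TMM. Relative to T cell genes the members lower numbered 5 to 10 when 1 library was left out, 5 against B cell genes without Ighm and 0 with it. Relative to leukocyte genes they numbered 1 to 10 when 1 library was left out. The cause of these changes was not tested, except that the fits without a library or with a covariate have fewer residual degrees of freedom. All 130 relative values were negative, and 37 calls among them were lost. Having 2 pools a group, sex on the side of treatment and 20 to 33 reads of Klrc1 in treated pools limit these results. No paired analysis was possible because the replicate numbers were given in accession order and tie no pool to another.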
